A study of Mus musculus with 11 samples.

Results

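Immediate early genes are transcribed within minutes of a stimulus, without prior protein synthesis, and their mRNAs are short-lived. Stimuli reach them through kinases that phosphorylate factors already bound to their promoters, such as CREB and the serum response factor with its ETS partners. Growth factors, stretch, depolarisation and the enzymatic or mechanical isolation of tissue all induce them, so in dissected tissue their level can follow events around collection as well as events in the animal. The 10 genes described here are Fos, Fosb, Jun and Junb, which encode subunits of the AP-1 transcription factor, Egr1, Atf3, Ier2 and Nr4a1, which encode other nuclear regulators, and Dusp1 and Zfp36, which encode a phosphatase and an RNA-binding protein that end the response. They were taken by symbol from a list of immediate early genes, and all 10 were among the 13734 genes measured.

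The mRNA came from glomeruli, the filtration units of the kidney, isolated from db/db mice, which lack the long leptin receptor and become obese and diabetic, and from their heterozygous db/m littermates. There were 3 libraries from db/db mice given puerarin, an isoflavone glycoside from kudzu root, by oral gavage at 20 mg/kg per day in 5% DMSO, 4 from db/db mice given the 5% DMSO vehicle, and 4 from db/m mice given the vehicle. All were labelled as male, bought at 8 weeks and dosed from 10 weeks of age for 6 weeks. The study asked how puerarin acts on diabetic kidney injury through Gnai1, an inhibitory G protein subunit that lowers cAMP. The protocol names the BKS background and the strain field names C57BL/6J, and nothing says whether a library is 1 animal or a pool, so p-values here measure the spread between libraries, which may be technical.

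Library titles come in 2 forms. In 6 of them a group abbreviation carries a number (db/db puerarin 2 and 3, db/db vehicle 1 and 3, db/m vehicle 2 and 3; called group-tag libraries here), and in 5 the letter S does (db/db puerarin S144, db/db vehicle S152 and S153, db/m vehicle S184 and S185; S-number libraries). The labels name a pair of sequencing sites and assign no library to either, so what the forms stand for is not known. Total counts were 35369703 to 44244460 per library. The libraries db/db puerarin 2 and 3 stood apart from their label of male mice: Xist, the RNA that silences the inactive X chromosome in females, was at 528.5 and 819 CPM (read counts scaled to a common library size) in them and at most 6.47 CPM in each of the other 9. Ddx3y, a gene of the Y chromosome, was at 3.06 and 0.909 CPM in them and at 50.3 to 85.2 CPM in the other 9. Among group-tag libraries this difference and puerarin cannot be told apart. Podocyte markers summed to 11760 to 17130 CPM in every library, as the label of glomeruli implies. Counts of calls among the 10 genes and the lists are also given without puerarin 2 and 3, a fit that leaves puerarin with 1 library.

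Promoters are shown because cAMP and kinase signals act on these genes through short elements near their start sites. The RefSeq promoter table (GRCm38.p6, the same build as mm10) held 8 of the 10 genes. In the 250 bases before the start, the core of the cAMP response element, TGACG, was found on either strand in 6 of the 8 (Fos, Fosb, Junb, Atf3, Dusp1 and Nr4a1), against 17.8% of 32851 promoters. The full palindromic element, TGACG followed by TCA, which contains the core on both strands, was found in Dusp1 alone of the 8 and in 1.55% of all promoters. The AP-1 motif TGANTCA was found in 0 of the 8 and in 6.75% of all, the ETS core CCGGAA in Zfp36 and Nr4a1 and in 12% of all, and the serum response factor's CArG box in Zfp36 and in 1.47% of all. TATAAA was found in Fos and in 12.4% of all. A match is a stretch of letters, not a bound site. Sites farther upstream, and the promoters of Egr1 and Ier2, were not searched. The 150 bases before the start of the 6 genes with a TGACG match follow, 5′ to 3′ on the gene's own strand. The start is that of the RefSeq table, which for Fos lies a few bases before the one in the deposited file. Capitals mark TGACG, its reverse complement CGTCA, and TATAAA. The windows are chr12:85473740-85473889 (plus strand) for Fos, chr7:19310046-19310195 (minus) for Fosb, chr8:84978749-84978898 (minus) for Junb, chr1:191183334-191183483 (minus) for Atf3, chr17:26508473-26508622 (minus) for Dusp1 and chr15:101266696-101266845 (plus) for Nr4a1.
Fos: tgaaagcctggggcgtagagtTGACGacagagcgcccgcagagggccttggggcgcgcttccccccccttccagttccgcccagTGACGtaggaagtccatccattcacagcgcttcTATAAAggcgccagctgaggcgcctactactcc
Fosb: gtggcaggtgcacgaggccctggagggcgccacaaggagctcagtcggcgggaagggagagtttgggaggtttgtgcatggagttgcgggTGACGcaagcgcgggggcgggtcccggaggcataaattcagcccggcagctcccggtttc
Junb: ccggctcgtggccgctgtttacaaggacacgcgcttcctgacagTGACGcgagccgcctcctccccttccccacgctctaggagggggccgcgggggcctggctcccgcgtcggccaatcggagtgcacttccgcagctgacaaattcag
Atf3: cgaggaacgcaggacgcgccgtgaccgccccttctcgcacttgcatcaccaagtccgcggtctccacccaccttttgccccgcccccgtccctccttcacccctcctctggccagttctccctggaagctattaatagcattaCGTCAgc
Dusp1: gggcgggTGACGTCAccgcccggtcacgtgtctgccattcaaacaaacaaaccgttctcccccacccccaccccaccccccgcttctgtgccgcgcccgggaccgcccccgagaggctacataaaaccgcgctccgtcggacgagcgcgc
Nr4a1: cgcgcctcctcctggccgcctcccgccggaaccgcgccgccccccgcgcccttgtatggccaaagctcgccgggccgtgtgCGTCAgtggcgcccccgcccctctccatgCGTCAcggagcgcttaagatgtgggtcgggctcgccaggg

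In Fos the capitals mark TGACG 129 and 66 bases and TATAAA 33 bases before the start. Fosb and Junb had 1 TGACG match each, 60 and 106 bases before the start, on the gene's strand. Atf3 had 1 on the opposite strand, 7 bases before the start. Dusp1 carried the full palindrome 143 bases before the start, and a further TGACG 191 bases before it, outside the bases shown. Nr4a1 had 4 matches in the wider window, all on the opposite strand.

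Across all 11 libraries, levels per kilobase of transcript were highest for Dusp1, at 131 CPM per kb on average, then Jun at 71.8 and Junb at 56.8. They were lowest for Atf3 at 6.61 and Fosb at 2.35 CPM per kb. All 10 genes varied more between libraries than most genes did. The SD of log2 CPM over the 11 libraries was 1.26 for Fosb, 1.03 for Atf3 and Fos, 1.02 for Egr1, 0.75 for Nr4a1 and 0.71 for Junb, and 0.46 to 0.54 for Ier2, Jun, Zfp36 and Dusp1, against a median of 0.22 over all genes. In bulk RNA, fewer cells of a type and less RNA per cell cannot be told apart.

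The main difference among these genes lay between the 2 name forms. In a model with group as a term, all 10 were lower in group-tag than in S-number libraries and 7 passed the test: Fos, Fosb, Jun, Junb, Egr1, Atf3 and Zfp36 (edgeR's quasi-likelihood test, Benjamini-Hochberg adjusted p under 0.05 over all genes). Over all 13734 genes, 1.32% were called lower and 5.65% higher, 6.97% in all. The median log2 fold change was -0.91 over the 10 genes and -0.02 over all genes. The calls are fragile, as the paragraph on left-out libraries gives.

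**Figure D1:**
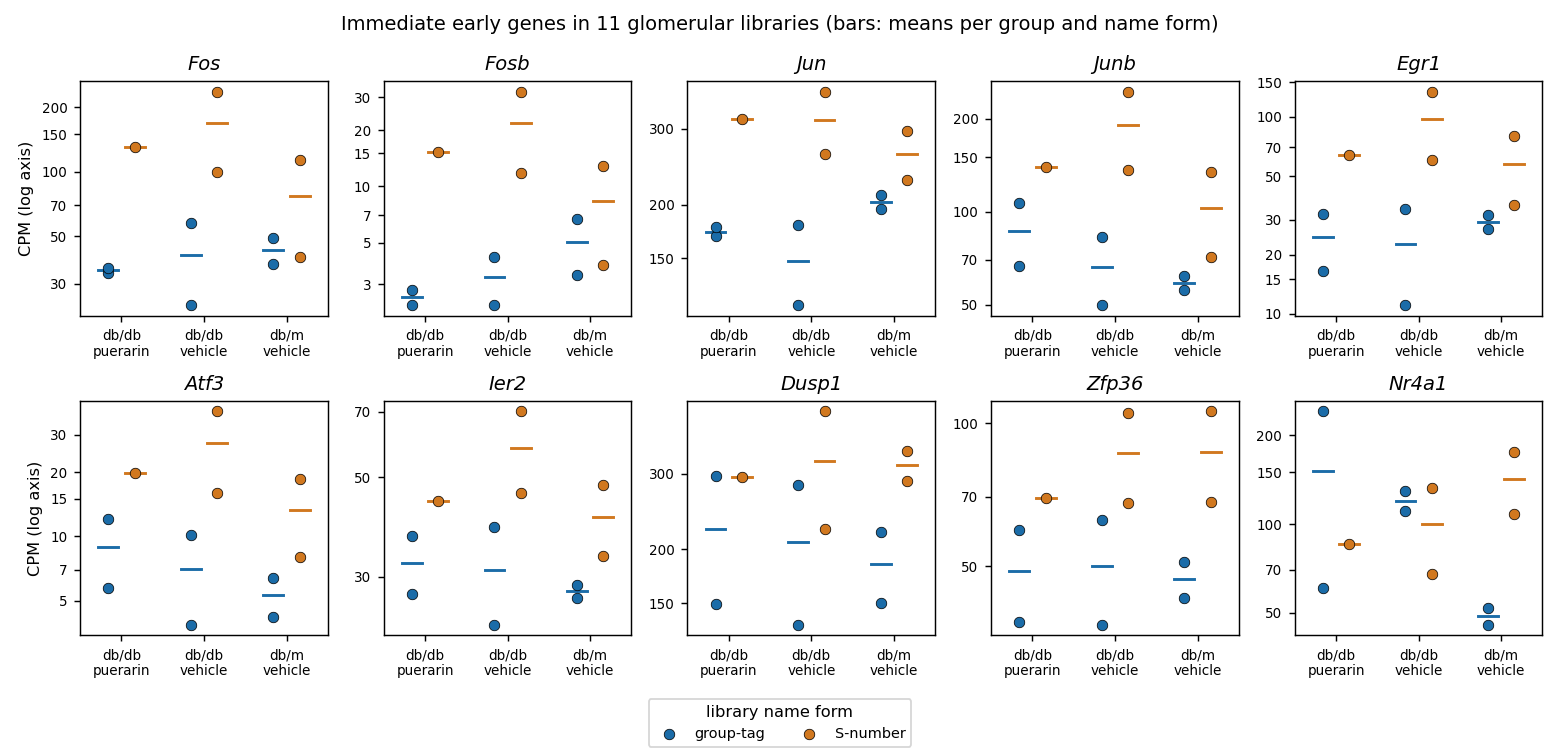
Level of each of the 10 genes (CPM, log axis) in db/db puerarin, db/db vehicle and db/m vehicle libraries, with group-tag libraries in blue, S-number libraries in orange and a bar at the mean of each group and form. In Jun, Egr1 and Zfp36 every blue point lies below every orange point, while in Nr4a1 the colours mix.

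Fos, the founding AP-1 subunit (mm10 chr12:85473901-85477270), had 33.7 and 35.7 CPM in puerarin, 57.6 and 23.9 CPM in db/db vehicle and 49.3 and 37 CPM in db/m vehicle among group-tag libraries. The S-number libraries had 131 CPM in puerarin, 237 and 100.3 CPM in db/db vehicle and 114 and 40.1 CPM in db/m vehicle. Within each group the S-number libraries were the higher ones in puerarin and db/db vehicle, whereas in db/m vehicle S185 lay among the group-tag values. The log2 fold change between forms was -1.57 ± 0.37 (SE, n = 6 group-tag and 5 S-number libraries, edgeR adjusted p = 0.0354).

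Fosb (chr7:19302696-19310045), its close relative, had 2.32 and 2.80 CPM in puerarin, 4.2 and 2.34 CPM in db/db vehicle and 6.69 and 3.38 CPM in db/m vehicle among group-tag libraries. Among S-number libraries the values were 15.3 CPM in puerarin, 32.1 and 11.8 CPM in db/db vehicle and 12.9 and 3.80 CPM in db/m vehicle. It had the lowest counts and the largest difference of the 10, -1.97 ± 0.48 on the log2 scale (edgeR adjusted p = 0.0397). The forms overlapped because db/m vehicle S185 lay within the group-tag range. Fosb was counted as a pair of RefSeq transcripts whose lengths differ by 140 bases. Reads on the shorter one were 40.2% to 66.2% of those on the longer one in group-tag libraries and 57% to 88% in S-number libraries. The counting rule for reads common to both is not stated, so the sum of the pair can count a read more than once.

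Jun (chr4:95049036-95052222), the main AP-1 partner, had 169 and 177 CPM in puerarin, 179 and 117 CPM in db/db vehicle and 210.3 and 195 CPM in db/m vehicle among group-tag libraries. S-number libraries held 316 CPM in puerarin, 365 and 262 CPM in db/db vehicle and 296 and 228 CPM in db/m vehicle. The forms did not overlap, since the highest group-tag library stood at 210.3 CPM and the lowest S-number library at 228 CPM. The log2 fold change was -0.76 ± 0.16, with the smallest adjusted p of the 10 (edgeR, 0.0256).

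Junb (chr8:84976909-84978748), an AP-1 subunit that can restrain Jun, had 106 and 66.8 CPM in puerarin, 82.9 and 49.8 CPM in db/db vehicle and 61.8 and 55.8 CPM in db/m vehicle among group-tag libraries. Its S-number values were 139.9 CPM in puerarin, 244 and 136 CPM in db/db vehicle and 134 and 71.2 CPM in db/m vehicle. Both db/m group-tag libraries were low, and S185 again stood within the group-tag range. The log2 fold change was -1.05 ± 0.26 (edgeR adjusted p = 0.0387).

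Egr1 (chr18:34861207-34864956), a zinc finger factor induced by serum response factor and ERK, had 32.3 and 16.6 CPM in puerarin, 34 and 11.1 CPM in db/db vehicle and 31.7 and 27 CPM in db/m vehicle among group-tag libraries. In the S-number libraries there were 63.6 CPM in puerarin, 134 and 60.1 CPM in db/db vehicle and 80.3 and 35.5 CPM in db/m vehicle. The forms did not overlap, by a margin of 34 to 35.5 CPM. The log2 fold change was -1.50 ± 0.38 (edgeR adjusted p = 0.0436).

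Atf3 (chr1:191170297-191183333), a stress-induced repressor of the ATF/CREB family, had 12.1 and 5.71 CPM in puerarin, 10.2 and 3.86 CPM in db/db vehicle and 6.42 and 4.18 CPM in db/m vehicle among group-tag libraries. S-number values were 19.9 CPM in puerarin, 38.6 and 16.1 CPM in db/db vehicle and 18.6 and 8.00 CPM in db/m vehicle. The S-number library was higher in every group, but db/m vehicle S185 was below puerarin 2 and db/db vehicle 1. The log2 fold change was -1.52 ± 0.37 (edgeR adjusted p = 0.0395).

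Zfp36 (chr7:28376784-28379228), which binds AU-rich elements and speeds the decay of induced mRNAs, had 59.7 and 38.2 CPM in puerarin, 62.6 and 37.7 CPM in db/db vehicle and 42.9 and 51.1 CPM in db/m vehicle among group-tag libraries. In S-number libraries it had 69.7 CPM in puerarin, 105 and 67.9 CPM in db/db vehicle and 106 and 68.2 CPM in db/m vehicle. The forms did not overlap, with 62.6 CPM as the highest group-tag and 67.9 CPM as the lowest S-number value. The log2 fold change was -0.76 ± 0.20 (edgeR adjusted p = 0.0474). Thus 3 of the 10 genes (Jun, Egr1 and Zfp36) had group-tag libraries wholly below S-number libraries, against 1.58% of all genes.

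Ier2, Dusp1 and Nr4a1 did not pass. Ier2 (chr8:84661331-84662852), a small nuclear regulator, had 23.4, 28.1 and 38.7 CPM as the lowest, median and highest group-tag values and 33.3 to 70.2 CPM in S-number libraries. Its log2 fold change was -0.66, with a 95% interval of -1.06 to -0.26 (edgeR adjusted p = 0.0526). Dusp1 (chr17:26505591-26508472), a phosphatase of the MAP kinases, had 297 and 149 CPM in puerarin, 283 and 134 CPM in db/db vehicle and 150.3 and 219.7 CPM in db/m vehicle among group-tag libraries, and 223 to 420 CPM in S-number libraries. For Dusp1 the log2 fold change was -0.62, interval -1.19 to -0.05 (edgeR adjusted p = 0.163). Both genes overlapped between forms through puerarin 2 and db/db vehicle 1, which were high among the group-tag libraries.

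Nr4a1 (chr15:101266846-101274794), an orphan nuclear receptor, had 242 and 60.6 CPM in puerarin, 111 and 129.7 CPM in db/db vehicle and 45.5 and 52 CPM in db/m vehicle among group-tag libraries. In S-number libraries it had 85.8 CPM in puerarin, 132 and 67.4 CPM in db/db vehicle and 176 and 108 CPM in db/m vehicle. Puerarin 2 held its highest value. For the other 9 genes that library stood between 3rd (Dusp1) and 11th (Fosb) of the 11 from the highest. The form difference was -0.29 on the log2 scale, with an interval of -1.35 to 0.77 (edgeR adjusted p = 0.732). Taken within groups as a difference of mean log2 CPM, it was 0.50 in puerarin and 0.34 in db/db vehicle, against -1.50 in db/m vehicle. The other 9 genes were lower in group-tag libraries within each of the 3 groups. These within-group differences rest on 1 or 2 libraries a side and carry no test.

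**Figure D2:**
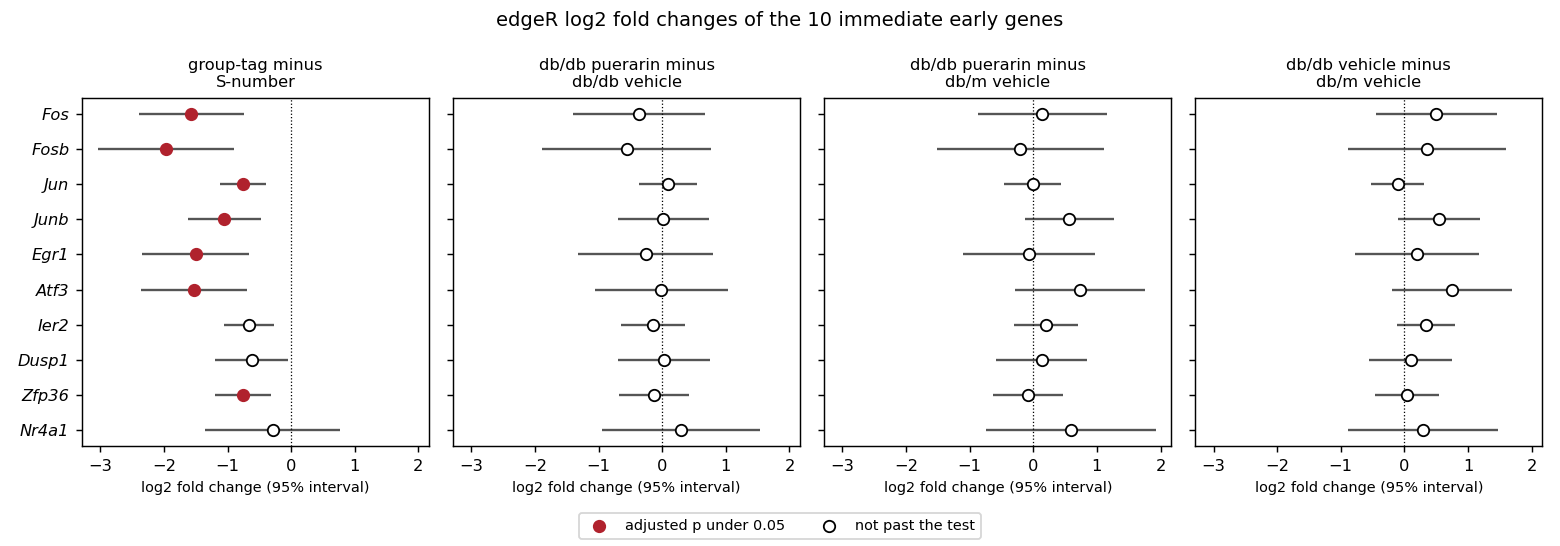
edgeR log2 fold changes (points) with 95% intervals (lines) of the 10 genes in 4 comparisons, red where the adjusted p was under 0.05. In the comparison of name forms all 10 points lie below 0 and 7 are red, while in the 3 group comparisons no point is red and every interval includes 0.

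The number of the 10 genes called between forms depended on single libraries. It was 0 on leaving out any of puerarin S144, puerarin 3, S152, db/db vehicle 3 and db/m vehicle 3, 1 on leaving out S153 or S184, 3 on leaving out db/m vehicle 2, 4 on leaving out puerarin 2, 5 on leaving out S185 and 8 on leaving out db/db vehicle 1. It was also 0 without both puerarin 2 and 3, the libraries with high Xist, where the log2 fold changes were -1.73 to -0.63. The fold changes moved less: over 21 alternatives, none of the 210 values changed sign, and the median over the 10 genes stayed between -1.04 and -0.75. DESeq2 called 8 of the 10 and 1885 of all genes. On the deposited log2 values limma called 6 and 1171, against 7 and 957 as reported. The count over all genes also moved with single libraries, so such swings were not limited to the 10. It rose to 1791 when db/db vehicle 1 was dropped and to 1492 when S184 was, where 1 of the 10 was called. It fell to 163 when S144 was dropped and to 274 for either S152 or S185. Dropping any other library left 317 to 670.

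Libraries also differed as units. Averaged over the 10 genes after centring each gene, db/db vehicle S152 stood highest at 1.32 on the log2 scale and held the highest value of 8 genes. The next were db/m vehicle S184 at 0.74, puerarin S144 at 0.58 and db/db vehicle S153 at 0.36. Then came db/db vehicle 1 at -0.07, puerarin 2 at -0.08 and db/m vehicle S185 at -0.16, followed by db/m vehicle 2 at -0.45, db/m vehicle 3 at -0.59 and puerarin 3 at -0.72. Library 3 of db/db vehicle was lowest at -0.95 and held the lowest value of 8 genes. The highest and the lowest library thus belonged to the same group, db/db vehicle.

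**Figure D3:**
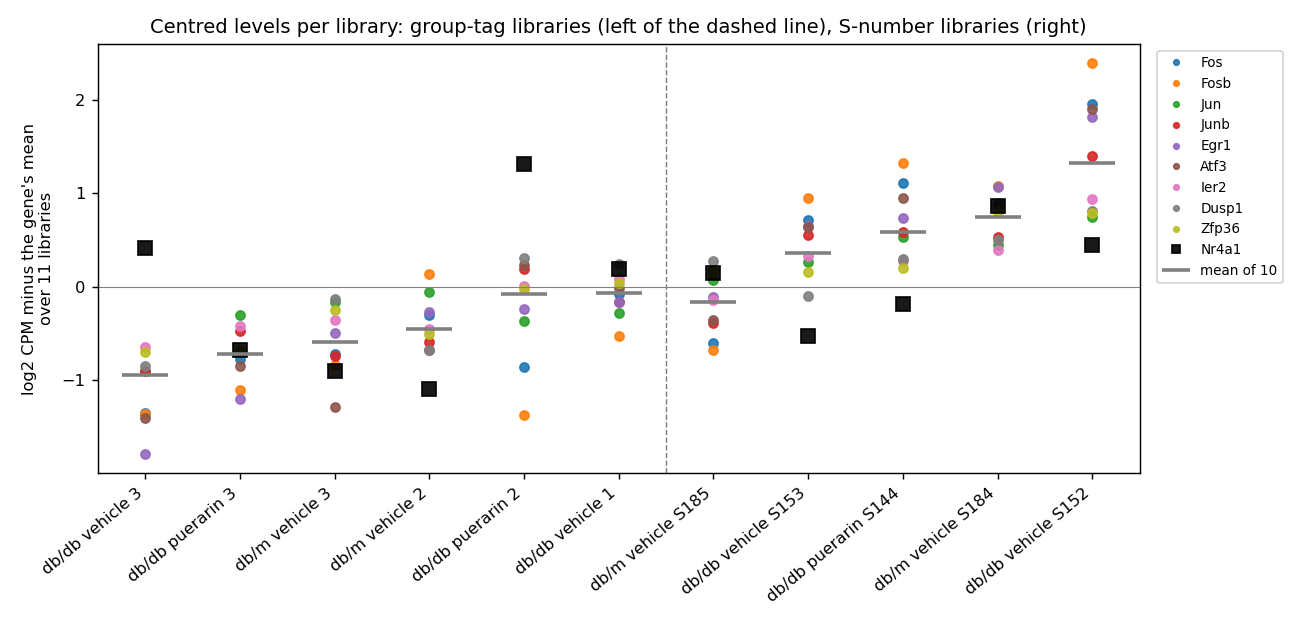
Level of each of the 10 genes in each library (log2 CPM minus the gene's mean over 11 libraries), with group-tag libraries left of the dashed line and S-number libraries right of it, each side ordered by the mean of the 10 (grey bars). The means span -0.95 to 1.32, and Nr4a1 (black squares) lies farthest above the other genes in puerarin 2 and db/db vehicle 3. It lies below all of them in puerarin S144, db/db vehicle S152 and S153, and db/m vehicle 2.

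Over all libraries the genes apart from Nr4a1 varied together, less so within the group-tag form. Over the 11 libraries, which share their depth scaling and the form difference, the 36 pairs without Nr4a1 had Pearson's r of 0.58 to 0.99 (median 0.89). The 9 pairs with Nr4a1 had r of -0.01 to 0.56 (median 0.39). Each gene's r with the mean of the other members was 0.83 to 0.98, and 0.27 for Nr4a1. Over the 6 group-tag libraries alone it was 0.835 to 0.943 for 6 genes, but 0.598 for Fos, 0.423 for Jun, 0.134 for Nr4a1 and 0.087 for Fosb, so that Fosb followed the others no more closely than Nr4a1 there. These correlations are descriptions. The genes outside the 10 whose log2 CPM followed the mean of the 10 most closely over the 11 libraries were Pak1ip1 (r = 0.903), Cercam, Plk2 (0.897), Trim37, Jkamp, Stmn3, Gla, Btg2 (0.887), Gm614 and Hmgb1-rs17 (0.876). Plk2 and Btg2 are themselves on the list of immediate early regulators used here. Plk2, a kinase induced by serum, ranged over 11.3 to 82.9 CPM, whereas Pak1ip1 ranged only over 24.9 to 31.8 CPM.

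Other genes of the response were read from lists. Between forms, 12 of the 18 further transcription factors measured were below 0 (list median -0.14). Of the 32 further regulators and effectors measured 21 were (median -0.19), against a median of -0.02 over all genes. Of 23 further immediate early transcription factors, 18 were measured, and between forms 1 was higher and 0 lower in group-tag libraries, where 5.65% of all genes were higher, so the list's share was near that of all genes. The higher one was Npas4, an activity-induced factor known from neurons, which went the opposite way to the 10 genes at a low level: 1.69, 2.33 and 4.39 CPM as lowest, median and highest of the group-tag libraries, and 0.635 to 1.08 CPM in the S-number libraries, with no overlap. Its log2 fold change was 1.46 ± 0.22 (SE, edgeR adjusted p = 0.00753), and it remained called under each of the 21 alternatives (1.39, edgeR adjusted p = 0.0474, without puerarin 2 and 3). Of 33 further regulators and effectors 32 were measured and 1 was called, lower, where 1.32% of all genes were: Socs3, an inhibitor of cytokine signalling (-1.49 ± 0.36, edgeR adjusted p = 0.0387). Socs3 had 33.2 and 38.1 CPM in puerarin, 50.2 and 13 CPM in db/db vehicle and 22.6 and 21.7 CPM in db/m vehicle among group-tag libraries. In S-number libraries it had 112 CPM in puerarin, 164 and 111 CPM in db/db vehicle and 48.7 and 25.1 CPM in db/m vehicle. In every group its S-number libraries were the higher ones, but S184 and S185 lay within the whole group-tag range. Its call was lost in 7 of the 11 fits without 1 library, and also without both puerarin 2 and 3 (-1.42, edgeR adjusted p = 0.214), where the list's count was 0. The list's count of 1 became 6 without db/db vehicle 1, 2 without S184 and 0 on leaving out any of puerarin 3, S144, S152, S153, db/m vehicle 2 and db/m vehicle 3, and that of the transcription factors became 2 without db/db vehicle 1.

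Among 14 heat shock genes, all measured, 4 were lower in group-tag libraries and 0 higher, where 1.32% of all genes were lower, with a list median of -0.44. These were Dnajb1 (82.4 ± 6.10 against 124 ± 37.5 CPM, SD, edgeR adjusted p = 0.0275) and Dnaja1 (edgeR adjusted p = 0.0459), which encode HSP70 co-chaperones, and Hspa1a and Hspa1b (edgeR adjusted p = 0.0323 and 0.0281), the inducible HSP70 genes. Hspa1a and Hspa1b are near-identical copies, so their counts are uncertain, and together they may hold 1 signal. The count of 4 became 0 on leaving out any of puerarin S144, db/db vehicle 3 and db/m vehicle 3, 1 on leaving out any of puerarin 3, S152 and S185, 2 on leaving out S153 or db/m vehicle 2, and 6 on leaving out S184. It was also 0 without both puerarin 2 and 3. Of 13 hypoxia genes 11 were measured and 2 were higher, where 5.65% of all genes were: the glucose transporter Slc2a1 (0.61, edgeR adjusted p = 0.023) and the pyruvate dehydrogenase kinase Pdk1 (0.85, edgeR adjusted p = 0.0395). That count ranged over 0 to 3 when 1 library was left out: it was 0 on leaving out any of puerarin S144, db/db vehicle 3, S152, S153 and S185, and 1 on leaving out any of puerarin 2, puerarin 3, db/m vehicle 2 and db/m vehicle 3. Without both puerarin 2 and 3 it was 0.

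None of 8 measured NF-kB early response genes (of 12 listed) and none of 24 upstream kinases and factors was called between forms by edgeR or DESeq2, nor by edgeR without puerarin 2 and 3. With the tubule marker level as a further term edgeR called 1 upstream gene. The NF-kB genes with the smallest p, Cxcl1 and Tnfaip3, stood at -0.96 (edgeR adjusted p = 0.172) and -0.39 (0.191) on the log2 scale. Among the upstream genes the smallest p belonged to the kinase Rps6ka3 (-0.27, edgeR adjusted p = 0.126) and to Creb1 (-0.33, edgeR adjusted p = 0.16), which encodes CREB. The list of upstream genes had a median of -0.02, that of all genes, and the NF-kB list -0.25, with 7 of 8 genes below 0.

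**Figure D4:**
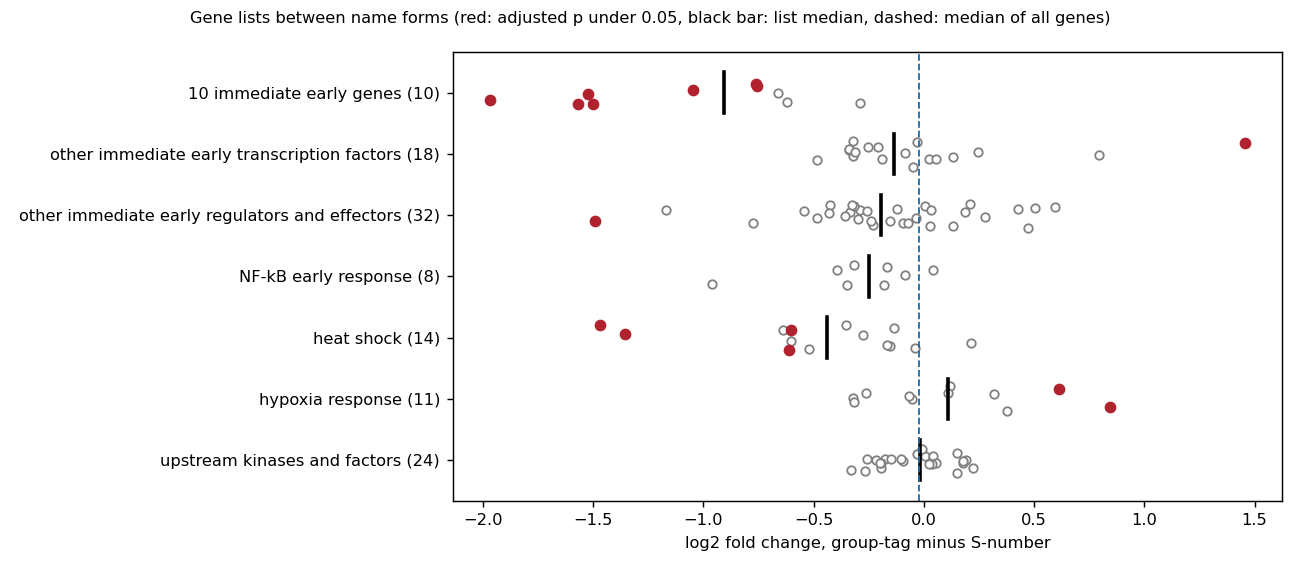
Log2 fold change, group-tag minus S-number, of each measured gene of 7 lists (circles; vertical position within a list is arbitrary), red where the edgeR adjusted p was under 0.05, with list medians as black bars and the median of all genes as a dashed line. The 10 immediate early genes have the lowest median (-0.91), heat shock genes follow (-0.44), and Npas4 is the red point at 1.46.

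Markers of other cell types differed between forms beside these genes. Over all genes 5.65% were called higher in group-tag libraries and 1.32% lower. Loop and distal tubule markers were called higher in group-tag libraries for 5 of 6 genes (Umod, Slc12a1, Slc12a3, Egf and Kcnj1), with a summed level of 5905 to 11610 CPM against 1522 to 5766 CPM in S-number libraries. Collecting duct markers were called higher for 2 of 6 (Avpr2 and Scnn1g), at 276 to 553 CPM in group-tag against 56.7 to 233 CPM in S-number libraries. Mesangial and smooth muscle markers divided: the contractile genes Acta2, Tagln and Myh11 were called higher (1.74, 1.20 and 2.32), the other 5 of 8 were below 0 and uncalled, the list median was -0.10, and the sums were 1126 to 1993 CPM in group-tag against 1105 to 1451 CPM in S-number libraries. Erythroid markers were called lower for 4 of 6 measured (Hbb-b1, Hbb-b2, Hbb-bs and Hbb-bt, near-identical copies that can share reads), at 11.3 to 30.2 CPM in group-tag against 29.0 to 51.0 CPM in S-number libraries. Without puerarin 2 and 3, edgeR called 3 mesangial and smooth muscle genes and 1 collecting duct gene, and 0 in the loop and distal tubule and the erythroid lists. No gene of the podocyte, glomerular endothelial, proximal tubule, myeloid or lymphocyte lists was called (by edgeR; the smallest adjusted p of these was 0.0504, in the podocyte list). Glomerular endothelial markers were nevertheless below 0 for 8 of 8 genes (median -0.31, smallest adjusted p 0.0571), at 3323 to 5787 CPM in group-tag against 5304 to 6791 CPM in S-number libraries. Proximal tubule markers were below 0 for 8 of 8 (median -0.36), at 533.3 to 2565 CPM in group-tag against 896 to 5104 CPM in S-number libraries. Apart from S184 the S-number libraries held at most 1966 CPM. Myeloid markers were above 0 for 9 of 9 (median 0.58), at 109 to 1205 CPM in group-tag against 166 to 276 CPM in S-number libraries. Apart from db/db vehicle 1 the group-tag libraries held at most 319 CPM. The part of these cells in the difference between forms was not tested. With the tubule marker level as a further term 5 of the 10 immediate early genes and 1307 of all genes were called. With the myeloid marker level 1 of the 10 and 895 of all genes were, against 7 and 957 with neither term.

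**Figure D5:**
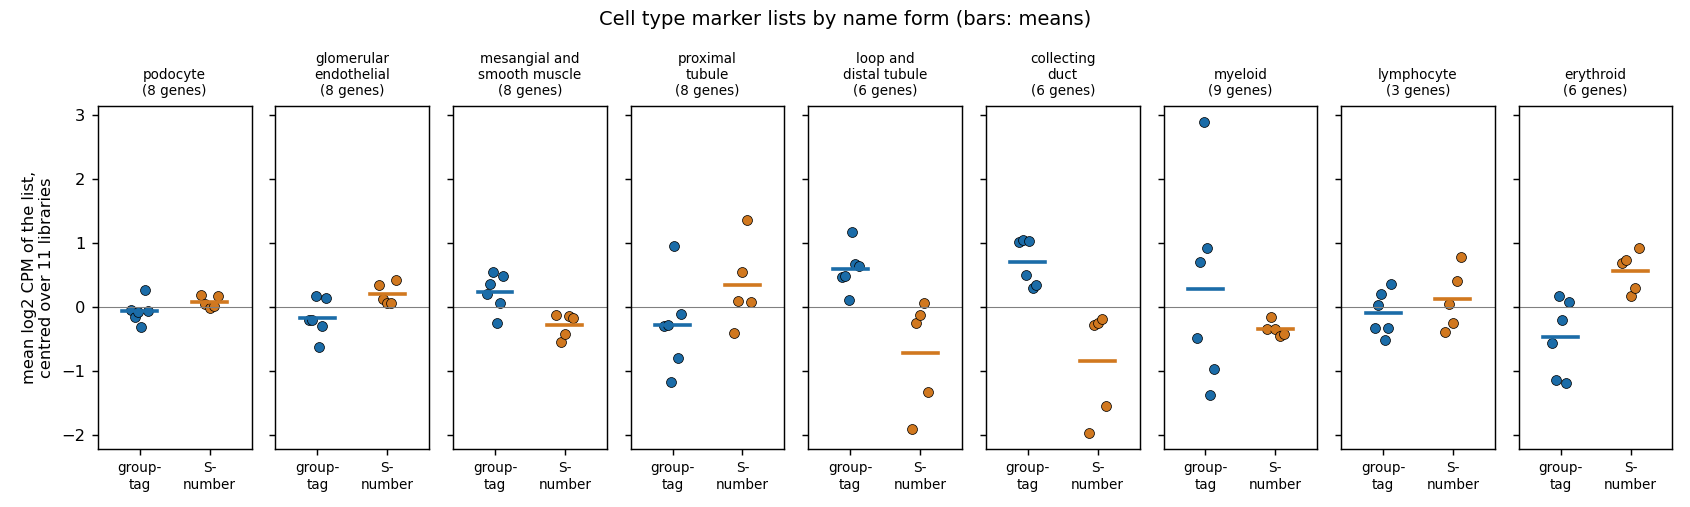
Mean log2 CPM of each cell type marker list, centred over the 11 libraries, in group-tag (blue) and S-number (orange) libraries, with bars at the means. The loop and distal tubule and the collecting duct lists have every blue point above every orange point, podocyte markers stay near 0 in both, and 1 blue point of the myeloid list, db/db vehicle 1, stands far above the rest.

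Puerarin did not shift these genes past the test. Against db/db vehicle, 0 of the 10 were called, as were 0% of all genes, with 0 of the 10 at an unadjusted p under 0.05 (4.21% of all genes) and 0 by DESeq2. Log2 fold changes ran from -0.56 for Fosb (interval -1.88 to 0.77) to 0.30 for Nr4a1 (interval -0.94 to 1.54), with a median of -0.07, and the smallest adjusted p was 0.967 (edgeR). The narrowest intervals were those of Jun, at -0.36 to 0.55, and Ier2, at -0.64 to 0.36. By mean, Fos stood at 66.9 ± 55.7 CPM in puerarin libraries (SD, n = 3) and 105 ± 93.4 CPM in db/db vehicle libraries (SD, n = 4). In both groups the spread was nearly as large as the mean. Egr1 averaged 37.5 ± 24.0 CPM in puerarin and 59.8 ± 53.4 CPM in db/db vehicle libraries. Dusp1 averaged 247 ± 84.8 CPM in puerarin and 265 ± 120.3 CPM in db/db vehicle libraries. The libraries of the 2 groups overlapped for each of the 10 genes, while 3.23% of all genes had no overlap.

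Within forms the puerarin difference changed its side. In S-number libraries, with 1 puerarin library, 9 of the 10 genes were below db/db vehicle (median log2 difference -0.30). In group-tag libraries, where both puerarin libraries have high Xist, 7 of the 10 were above it (median 0.10). These within-form differences carry no test. Without both puerarin 2 and 3, 0 of the 10 genes were called, and Nr4a1 stood at -0.72 against db/db vehicle. Of the lists, 0 genes were called in any by edgeR. The genes with the smallest p were the nuclear receptor Nr4a2 (0.64, edgeR adjusted p = 0.967) and Npas4 (0.63), Trib1 (-0.40) and Gadd45b (0.40), Nfkbid (0.37) and Cxcl1 (0.94), Dnajb1 (0.38) and Hsp90aa1 (0.29), Slc2a1 (-0.32) and Pdk1 (-0.52), and the factors Srf (0.36) and Crem (0.34), all with the same adjusted p. Without both puerarin 2 and 3 these lists again had 0 calls.

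No difference between diabetic and control mice given vehicle passed for these genes. Between db/db vehicle and db/m vehicle 0 of the 10 genes were called, against 0.0437% of all genes, with 0 of the 10 at an unadjusted p under 0.05 (10.3% of all genes) and 0 by DESeq2. Of the 10 log2 fold changes 9 were above 0, from -0.10 for Jun to 0.75 for Atf3, with a median of 0.32 against 0.015 over all genes. Junb had the smallest p: it averaged 128 ± 85.2 CPM in db/db vehicle and 80.8 ± 36.3 CPM in db/m vehicle libraries (SD, n = 4 each), a log2 fold change of 0.55 with an interval of -0.10 to 1.20 (edgeR adjusted p = 0.578). Atf3 averaged 17.2 ± 15.2 CPM in db/db vehicle and 9.29 ± 6.38 CPM in db/m vehicle libraries, with an interval of -0.20 to 1.70. These averages lean on 1 library: without db/db vehicle S152 the median over the 10 genes was 0.02. Myeloid markers, 9 of 9 above 0 and 0 called, summed to 177 to 1205 CPM in db/db vehicle (at most 319 CPM apart from library 1) and 109 to 276 CPM in db/m vehicle libraries. Their part in these values was not tested.

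Whether the diabetic difference depended on name form was tested with an interaction term, and 0 of the 10 genes were called, against 0.0218% of all genes and with 0 of the 10 at an unadjusted p under 0.05 (3.33% of all genes). The estimates were widest apart in Fosb and Nr4a1. For Fosb the difference between db/db and db/m vehicle was -0.60 among group-tag and 1.47 among S-number libraries on the log2 scale, an interaction of -2.02 ± 0.93 (SE, edgeR unadjusted p = 0.06, adjusted p = 1). For Nr4a1 it was 1.3 among group-tag and -0.55 among S-number libraries, an interaction of 1.81 ± 0.81 (edgeR unadjusted p = 0.0541, adjusted p = 1). Each estimate rests on 2 libraries per group and form.

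Among the lists in this comparison 0 genes were called by edgeR. The smallest p belonged to Bhlhe40 (46.9 ± 9.68 CPM in db/db vehicle, 27.3 ± 5.17 CPM in db/m vehicle, log2 fold change 0.77, edgeR adjusted p = 0.129) and Klf10 (0.84, edgeR adjusted p = 0.182). Both had no overlap between the groups. Picking by p favours such genes, so the 4.96% of all genes without overlap is no like comparison. Fosl2, Maff and Gadd45b of the lists had no overlap either. The next by list were Rgs1 (2.69, edgeR adjusted p = 0.352) and Socs3 (1.20, 0.362), Birc3 (0.27) and Nfkbia (-0.22), Hspb1 (-0.49) and Hsf1 (-0.19), Ldha (0.32) and Egln3 (-0.37), and the CREB coactivator Crtc1 (-0.41) and Srf (-0.33).

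Between db/db puerarin and db/m vehicle, 0 of the 10 genes were called, against 0.182% of all genes, again with 0 at an unadjusted p under 0.05 (10.3% of all genes) and 0 by DESeq2. The log2 fold changes ran from -0.20 for Fosb to 0.73 for Atf3, with a median of 0.13. Junb had the smallest p (0.57, interval -0.13 to 1.26, edgeR adjusted p = 0.612), and Nr4a1 the widest interval, -0.75 to 1.92. This comparison shares its db/m libraries with the previous one and its puerarin libraries with the one before. Among the lists 0 genes were called by edgeR, with or without puerarin 2 and 3. Those with the smallest p were Gadd45b (0.88, edgeR adjusted p = 0.107), Fosl2 (0.56, 0.126), Maff (1.66, 0.158), Crem (0.54, 0.136) and Sgk1 (0.74, 0.137). Each had no overlap between the groups. Picking by p favours such genes, so the 7.65% of all genes without overlap is no like comparison. Klf10, Btg1 and Dusp6 of the lists had no overlap either. Sgk1, a kinase of salt handling, averaged 2752 ± 474 CPM in puerarin and 1695 ± 252 CPM in db/m vehicle libraries. Without puerarin 2 and 3 the log2 fold changes were 1.32 for Gadd45b, 0.59 for Fosl2, 0.88 for Maff, 0.41 for Crem and 0.70 for Sgk1, with edgeR adjusted p of 0.299 or more. Further genes named by smallest p, which overlapped, were Tnfaip3 (0.40), Nfkbid (0.38), Hsp90aa1 (0.32), Hsf1 (-0.25), Ndrg1 (0.97), Egln3 (-0.41) and Crtc1 (-0.30).

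By group mean, db/db vehicle stood highest for 8 of the 10 genes, puerarin for Nr4a1 and db/m vehicle for Jun. The lowest mean was that of puerarin for 4 genes and of db/m vehicle for 6. These means do not allow for name form, of which puerarin had 1 S-number library in 3. With form as a term, puerarin was highest for 3 genes (Junb, Dusp1 and Nr4a1), db/db vehicle for 6 and db/m vehicle for Jun. Neighbours in the order of means without the form term overlapped for all 10 genes. Each group held both name forms, which widens its range, so this overlap does not bear on the order with form as a term. In the tests with form as a term, 0 of the 10 were called in each group comparison, so neither order was established.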

How the data were processed

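Glomerular mRNA was sequenced from 11 libraries. The submitters' processing notes name BWA, limma and mm10, without versions. The rule for counting reads per transcript and the use of strand are not stated. The authors deposited raw counts for 22320 RefSeq transcripts in 15 count columns (4 matched no sample and were not used), and log2 values that differ from the log2 of those counts by 1 constant in each library. Each transcript reached a count of 100 in some column, so genes below that were not analysed here. Blank cells (13) were set to 0 and 50 symbols changed to dates were restored. Counts were summed to 13734 genes, in which a read on several transcripts can count more than once. Genomic positions are 1-based.

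Libraries were grouped by their labels. edgeR 4.0.16 (R 4.3.3) was fitted to all genes with TMM factors, group and name form as terms and no further filter, tested on simulated data first. Adjusted p-values are Benjamini-Hochberg over all genes, called under 0.05. Fold changes are group minus group on the log2 scale, CPM used TMM factors, and log2 CPM levels a prior count of 2. SE is the log2 fold change over the root of F, and 95% intervals used 10.1 degrees of freedom. Alternatives were DESeq2 1.42.0, limma 3.58.1, other scaling, filter, transcript choice and terms, single name forms, and leaving out libraries. The fit without puerarin 2 and 3 was chosen after seeing the data. The genes and lists were chosen with earlier results of these data known. From each list other than the markers every called gene is named, up to 6 by smallest p in each direction, and otherwise the 2 with the smallest p. Of genes outside the 10, the 10 with the highest Pearson's r are named. Replicate pairs differed by more than counting noise, so none was merged.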

Additional observations from a re-analysis of the deposited data

Results flagged for a closer look

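In the db/m vehicle group, library S184 stood far from the other 3 in Egr1 and Fos. Egr1 was at 80.3 CPM in S184 and at 27.0 to 35.5 CPM in the others, a gap of 0.842 of the whole range. Fos was at 114 CPM (113.6) in S184 and at 37.0 to 49.3 CPM in the others, a gap of 0.839. Of 40 groups of values examined 2 were flagged, and chance flags about 1 in 20. S184 is an S-number library, and the other S-number library of this group, S185, was not set apart.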

How the results depend on the processing

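Between name forms, none of the 210 alternative values of the 10 genes changed sign, 135 kept their side of the threshold, 72 lost the call and 3 gained it. The number of the 10 called was 0 to 8 when 1 library was left out, 1 with the myeloid term and 0 without puerarin 2 and 3. The count of all genes was 163 to 1791 with 1 library left out, 81 without puerarin 2 and 3, and 1885 by DESeq2 (957 as reported). With the tubule term 707 genes were higher and 600 lower, and with the myeloid term 687 and 208, against 776 and 181.

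In the group comparisons the 10 genes gave 0 calls under every alternative run, and 0 in the interaction. The count of all genes called between db/db vehicle and db/m vehicle (6) was 290 by DESeq2, 13 by limma, 1 with no form term, 151 with the tubule term, 0 in group-tag libraries alone, 2 without puerarin 2 and 3, and 0 to 82 with 1 library left out. For puerarin against db/db vehicle (0) it was 15 by DESeq2, 1 with the tubule term, 1 in group-tag libraries alone and 0 to 5 with 1 left out. For puerarin against db/m vehicle (25) it was 297 by DESeq2, 5 with no form term, 443 with the tubule term, 62 with the myeloid term, 2 in S-number libraries alone, 1 in group-tag libraries alone, 0 without puerarin 2 and 3, and 0 to 74 with 1 left out. The causes were not tested. In S-number libraries alone puerarin has 1 library, which is assumed to vary like the other groups.

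Between same-numbered group-tag libraries the correlations of deviations from the group mean were -0.11 to 0.056. Each group holds a pair of group-tag libraries whose deviations mirror each other, so the check cannot tell whether the numbers pair libraries across groups. With the replicate block, 56 genes were called between db/db vehicle and db/m vehicle, 0 between puerarin and db/db vehicle and 49 between puerarin and db/m vehicle, and 0 of the 10 in each. Under the block Dusp1 (-0.085) and Zfp36 (-0.059) changed sign between db/db vehicle and db/m vehicle, and Junb (-0.076) and Nr4a1 (-0.043) between puerarin and db/db vehicle.

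Of 240 values of the 10 genes in each group comparison, none called, 23 changed sign for db/db vehicle against db/m vehicle, 36 for puerarin against db/db vehicle and 33 for puerarin against db/m vehicle. Between db/db vehicle and db/m vehicle the sign changed in S-number libraries alone (Jun 0.24, Zfp36 -0.025, Nr4a1 -0.53), in group-tag libraries alone (Fos -0.078, Fosb -0.62, Egr1 -0.37) and with the myeloid term (Dusp1 -0.077, Zfp36 -0.075, Birc3 -0.021). With 1 library left out the ranges that crossed 0 were Fosb -0.14 to 0.83, Jun -0.26 to 0.065, Egr1 -0.20 to 0.53, Dusp1 -0.12 to 0.28, Zfp36 -0.098 to 0.20 and Nr4a1 -0.01 to 0.69.

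For puerarin against db/db vehicle the sign changed in S-number libraries alone (Junb -0.41, Dusp1 -0.094, Nr4a1 -0.19, Cxcl1 -0.14), in group-tag libraries alone (Egr1 0.098, Atf3 0.32, Ier2 0.035), by limma (Atf3 0.097), with the myeloid term (Junb -0.11), with the tubule term (Dusp1 -0.015), with no form term (Jun -0.064, Junb -0.30, Dusp1 -0.10) and without puerarin 2 and 3 (Junb -0.26, Dusp1 -0.14, Nr4a1 -0.72, Cxcl1 -0.39). With 1 library left out the ranges were Fos -0.64 to 0.008, Jun -0.076 to 0.24, Junb -0.23 to 0.27, Egr1 -0.61 to 0.10, Atf3 -0.39 to 0.33, Ier2 -0.32 to 0.014, Dusp1 -0.30 to 0.29, Zfp36 -0.35 to 0.039 and Nr4a1 -0.67 to 0.71, the last turning only without puerarin 2.

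For puerarin against db/m vehicle the sign changed in S-number libraries alone (Fosb 0.89, Jun 0.28, Egr1 0.15, Dusp1 -0.076, Nr4a1 -0.71, Tnfaip3 -0.051, Ndrg1 -0.077), in group-tag libraries alone (Fos -0.33, Zfp36 0.051), by limma (Jun 0.002), with the myeloid term (Fosb 0.092, Jun 0.033, Egr1 0.016), with no form term (Fosb 0.032, Dusp1 -0.014) and without puerarin 2 and 3 (Fosb 0.32, Jun 0.097, Dusp1 -0.04, Nr4a1 -0.33, Ndrg1 -0.088). With 1 library left out the ranges were Fos -0.15 to 0.40, Fosb -0.60 to 0.34, Jun -0.13 to 0.11, Egr1 -0.36 to 0.15, Dusp1 -0.20 to 0.33, Zfp36 -0.31 to 0.051 and Nr4a1 -0.28 to 1.11.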
